A study of Homo sapiens with 2 samples.

Results

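The D-type cyclin genes CCND1, CCND2 and CCND3 and the genes of their kinase partners, CDK4 and CDK6, were examined in a list of APC ChIP-seq peaks from HCT-116, an established human colon carcinoma line. The members were all peaks whose named gene is one of these 5 genes, which gave 17 of the 44771 peaks and 5 of the 17266 gene names in the list. The series held 1 library of chromatin immunoprecipitated with a polyclonal antibody against the last 50 residues of APC and 1 library of input chromatin pre-cleared with rabbit IgG. Both came from cells with wild-type APC and a CTNNB1 allele that lacks Ser45, so that β-catenin, the CTNNB1 product, escapes degradation and keeps WNT signalling on. All values below describe peaks of the immunoprecipitated library in hg19 coordinates. With 1 library there was no replicate and no test of a difference was made. No read counts accompanied the peaks, so their depth and strength are unknown and the measures are number, length and position.

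D-type cyclins are the growth-signal-dependent regulatory subunits of CDK4 and CDK6. The active pairs phosphorylate the retinoblastoma protein RB and its relatives, which frees E2F factors to drive entry into S phase, and INK4 and CIP/KIP proteins modulate them. CCND1 is a classical target of β-catenin and TCF factors in colon cancer cells. APC is best known as the scaffold that marks β-catenin for degradation in the cytoplasm, and it also enters the nucleus.

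Start-region sequences are shown for 3 of these genes, because each had a peak over at least 1 of its start sites. They are RefSeq sequences of the current build, GRCh38.p14, each running from 250 bases before to 50 bases after an annotated start. RefSeq start regions were matched for CCND3, CDK4 and CDK6, with 6 in all, and none was matched for CCND1 or CCND2. Whether a start of this build is the one that the peak list used was not tested. For CDK6 and CCND3 the spacing between starts differs from that in the list. Regions are therefore set beside listed starts by their order only. For CDK6 both regions are shown, since the peak described below covers the downstream of 2 listed starts and stops short of the upstream one. In CDK4 (chr12:57752261-57752560, minus strand) the capitals mark CACGTG, the E-box that MYC and USF factors bind. In the upstream CDK6 region (chr7:92836524-92836823, minus strand) they mark GGGCGG or its reverse complement, a core of SP1 sites, and the downstream CDK6 region (chr7:92833910-92834209, minus strand) has no capitals because it held none of the strings searched. In CCND3 (chr6:42048639-42048938, minus strand) they mark the TCF/LEF motif CTTTGTA. This is the most upstream of 3 CCND3 regions and the only one with a TCF/LEF string. The other CCND3 regions are not shown. The peak over the more upstream of the 2 listed CCND3 starts, described below, carries a promoter label of TAF8.
CDK4: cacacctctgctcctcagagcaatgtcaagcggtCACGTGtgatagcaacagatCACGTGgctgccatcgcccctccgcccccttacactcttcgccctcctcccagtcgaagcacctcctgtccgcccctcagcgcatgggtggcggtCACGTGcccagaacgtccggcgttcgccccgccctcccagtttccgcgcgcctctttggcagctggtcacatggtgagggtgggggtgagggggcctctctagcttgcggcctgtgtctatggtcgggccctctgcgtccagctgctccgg
CDK6, upstream region: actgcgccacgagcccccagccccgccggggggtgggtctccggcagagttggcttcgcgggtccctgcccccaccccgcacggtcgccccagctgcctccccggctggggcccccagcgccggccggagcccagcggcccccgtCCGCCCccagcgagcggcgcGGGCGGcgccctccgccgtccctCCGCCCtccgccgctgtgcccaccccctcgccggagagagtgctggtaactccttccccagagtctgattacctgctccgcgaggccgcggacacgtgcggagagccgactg
CDK6, downstream region: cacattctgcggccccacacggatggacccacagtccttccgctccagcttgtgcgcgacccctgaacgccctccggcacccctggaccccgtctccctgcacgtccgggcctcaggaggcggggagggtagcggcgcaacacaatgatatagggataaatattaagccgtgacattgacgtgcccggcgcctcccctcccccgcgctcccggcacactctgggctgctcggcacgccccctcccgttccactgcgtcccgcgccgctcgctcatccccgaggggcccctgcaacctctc
CCND3: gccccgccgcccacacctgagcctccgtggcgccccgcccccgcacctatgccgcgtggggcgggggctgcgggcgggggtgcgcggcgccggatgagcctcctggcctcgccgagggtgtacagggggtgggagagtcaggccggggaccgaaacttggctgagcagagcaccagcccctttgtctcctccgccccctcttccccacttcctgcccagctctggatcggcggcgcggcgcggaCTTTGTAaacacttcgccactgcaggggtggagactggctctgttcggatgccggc

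The CDK4 start region held 3 E-boxes, beginning 216, 196 and 101 bases before the start. At least 1 CACGTG stood in 7.26% of the 35116 start regions in the table, and 3 or more in 33 of them (0.0940%). Counted for SP1 strings, the upstream CDK6 region held 3 and the downstream one 0, the CDK4 region held 3, and the 3 CCND3 regions held 5, 4 and 0, of which the first is the one shown. Over all regions 45.0% held at least 1 such string and 15.8% held 3 or more. The upstream CDK6 region also held 1 E-box. The CCND3 region shown held 1 TCF/LEF string, searched as CTTTGAA or CTTTGAT or CTTTGTA or CTTTGTT on both strands, which 13.8% of all regions held at least once. No such string was found in the other regions of CCND3 or in those of CDK4 and CDK6. The AP-1 motif TGANTCA, the CRE TGACGTCA, the E2F strings (TTTGGCGC or TTTCCCGC or TTTGCCGC or TTTCGCGC) and the TATA box TATAAA were in none of the 6 regions. The searches covered both strands, and none of these motifs overlaps another in the stretches capitalised. The regions shown held 23 CpG dinucleotides in CDK4, 37 upstream and 29 downstream in CDK6, and 29 in CCND3, against a median of 14 over all regions. The matches are descriptions of these letters only.

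Peaks covered a start site of 4 of the 5 genes, namely CCND1, CCND3, CDK4 and CDK6, and missed CCND2. A transcription start site (TSS) was counted as covered where it lay within the peak, judged by the listed distance from the peak centre and the peak length. By the same rule 36.5% of 20052 RefSeq protein-coding genes were covered by a peak named for them, and 67.4% had at least 1 named peak at all. All 5 genes had a named peak, and of the 13691 protein-coding gene names with a peak 7369 were covered. The 4 genes span a wide range of peak length at the start. CCND1 had 13036 bp, CDK6 had 3863 bp, CCND3 had 3673 bp at the start nearest to a peak centre, and CDK4 had 3074 bp. The median over the 7369 protein-coding genes covered in this way was 2238 bp, so all 4 lay above it. CCND1 stood apart from the other 3: its start peak was longer than that of 99.6% of these genes, and 26 genes had a longer one. The shares of genes with a shorter start peak were 85.9% for CDK6, 83.9% for CCND3 and 74.2% for CDK4. With no second library the spread of such lengths between replicates is unknown, and whether the order among CDK6, CCND3 and CDK4 would hold was not tested. No library made with a control antibody was analysed here, so APC binding and recovery of open chromatin in general cannot be told apart.

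**Figure D1:**
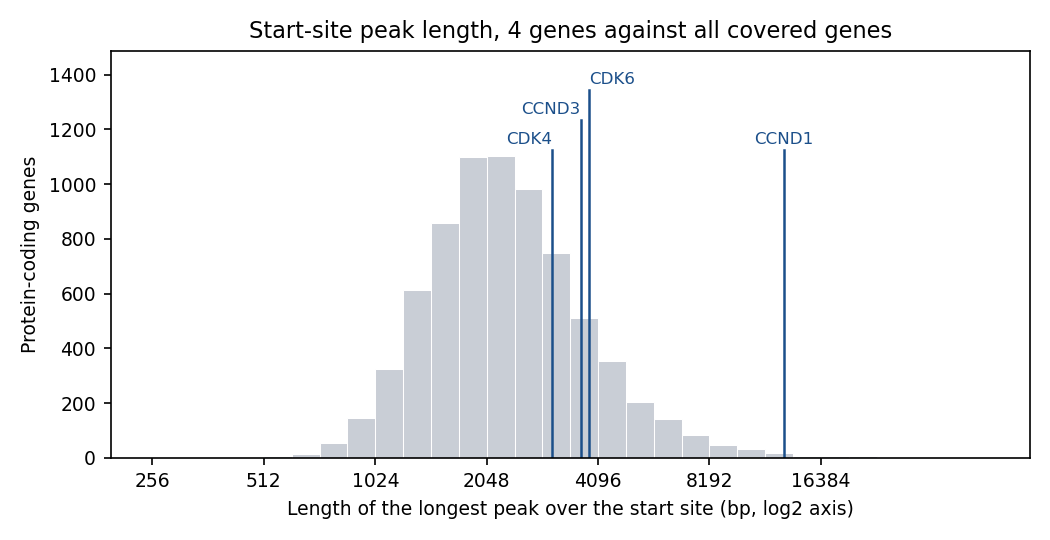
Histogram of the length in bp (log2 axis) of the longest peak over the start site, for 7369 protein-coding genes with such a peak (y axis, genes per bin), with lines at CCND1, CCND3, CDK4 and CDK6. CDK4, CCND3 and CDK6 lie on the upper shoulder of the distribution, between 3074 and 3863 bp, and CCND1 lies in its far tail at 13036 bp.

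The number of peaks differed between the genes in another way than the length. CCND1 and CCND3 had 5 peaks each, CDK6 had 4, CCND2 had 2 and CDK4 had 1. The median protein-coding gene with any peak had 2, and 13.7% of these 13691 genes had 5 or more. Summed over its peaks, CCND1 had 21952 bp, CCND3 had 11312 bp, CDK6 had 6668 bp, CDK4 had 3074 bp and CCND2 had 1406 bp. CCND1 alone held 49.4% of the 44412 bp of all 17 peaks. Its sum was higher than in 98.7% of protein-coding genes with a peak, against 93.2% for CCND3, 80.8% for CDK6, 48.0% for CDK4 and 17.0% for CCND2. CCND1 and CCND3 thus had equal numbers of peaks, while the CCND1 peaks were longer in sum.

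**Figure D2:**
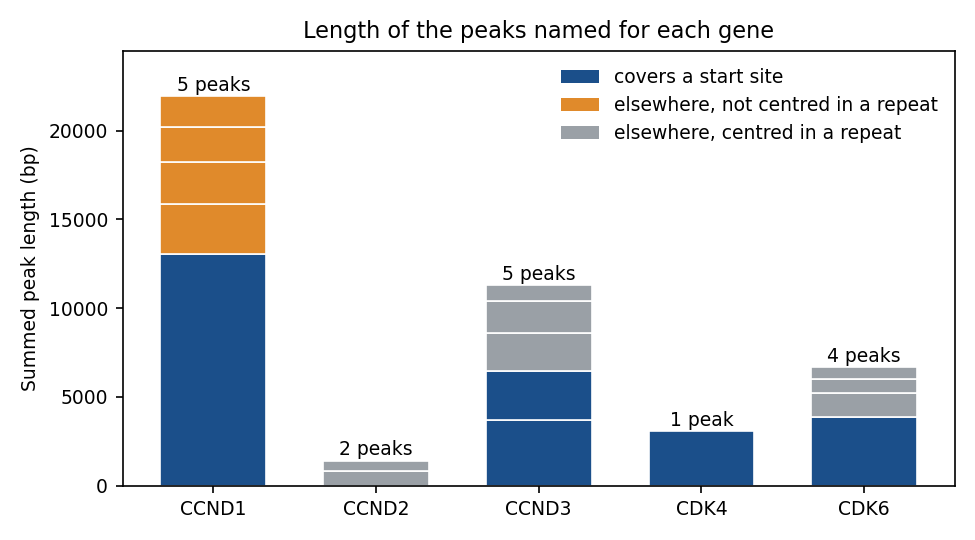
Stacked bars of the length in bp of every peak named for each gene, 1 segment per peak, coloured by whether the peak covers a start site and, if not, whether its centre lies in a repeat. CCND1 reaches 21952 bp, mostly from its start peak, CDK4 consists of 1 start peak, and CCND2 consists of repeat-centred peaks only.

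CCND1 encodes cyclin D1 (chromosome 11, plus strand, TSS at 69455873 by the listed distances). The start peak ran from 69450359 to 69463393, that is from 5514 bp upstream to 7520 bp downstream of the TSS, with its centre in intron 1 of 4 and in a stretch that the list labels as a CpG island. Its centre lay 1003 bp from the TSS, so the list labels it intronic although it covers the start. The next peak, 2387 bp long in intron 4 (69463910 to 69466295), followed after a gap of 516 bp. A 2837-bp peak at the end of the transcript (69467864 to 69470699) followed after a further 1568 bp. These 3 peaks together filled 89.8% of a 20341-bp stretch that reaches from upstream of the gene to its transcription end. The other 2 CCND1 peaks were intergenic, 1923 and 1769 bp long, centred 27255 and 34945 bp upstream. Both were longer than the median peak of the list, 1350 bp.

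None of the 5 CCND1 peaks was centred in a repeat. Of 710 protein-coding genes with 5 peaks, 33 (4.65%) had no repeat-centred peak. Over the whole list 52.4% of peaks were centred in repeats, and 38.7% in SINEs, the class of short interspersed elements that includes Alu. The 10 kb on each side of the CCND1 TSS were 75.0% under peaks, more than in 99.5% of the 12565 protein-coding genes whose TSS could be placed from the listed distances.

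CCND2 encodes cyclin D2 (chromosome 12, plus strand, TSS at 4382902). Its peaks were 594 bp (4263600 to 4264192) and 812 bp (4264587 to 4265397) long. Both lay in intergenic sequence, 119006 and 117910 bp upstream of the TSS, and both were centred in Alu elements, AluSx1 and AluSc. They were among the short peaks of the list, since 6.20% and 22.1% of all peaks were shorter, and the median SINE-centred peak had 889 bp. Both peaks of a gene were SINE-centred in 11.2% of the 3290 protein-coding genes with 2 peaks. Peaks of any name were also missing near the CCND2 start. The nearest edges were 117505 bp upstream and 134521 bp downstream, where a peak named for FGF23 began. This gap of 252025 bp compares with a median of 21412 bp between neighbouring peaks, and 4.23% of 44747 such gaps were longer. Each gap counts once in that share, while a given site falls in a long gap more readily than in a short one. The share therefore does not say how often a start lies in so long a gap. Of the genes with a placed TSS, 1.55% had no peak within 100 kb on either side. Genes without a named peak have no placed TSS and are left out of that share. The absence of a call says that no peak was listed there, and whether reads were too few or could not be placed was not tested.

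**Figure D3:**
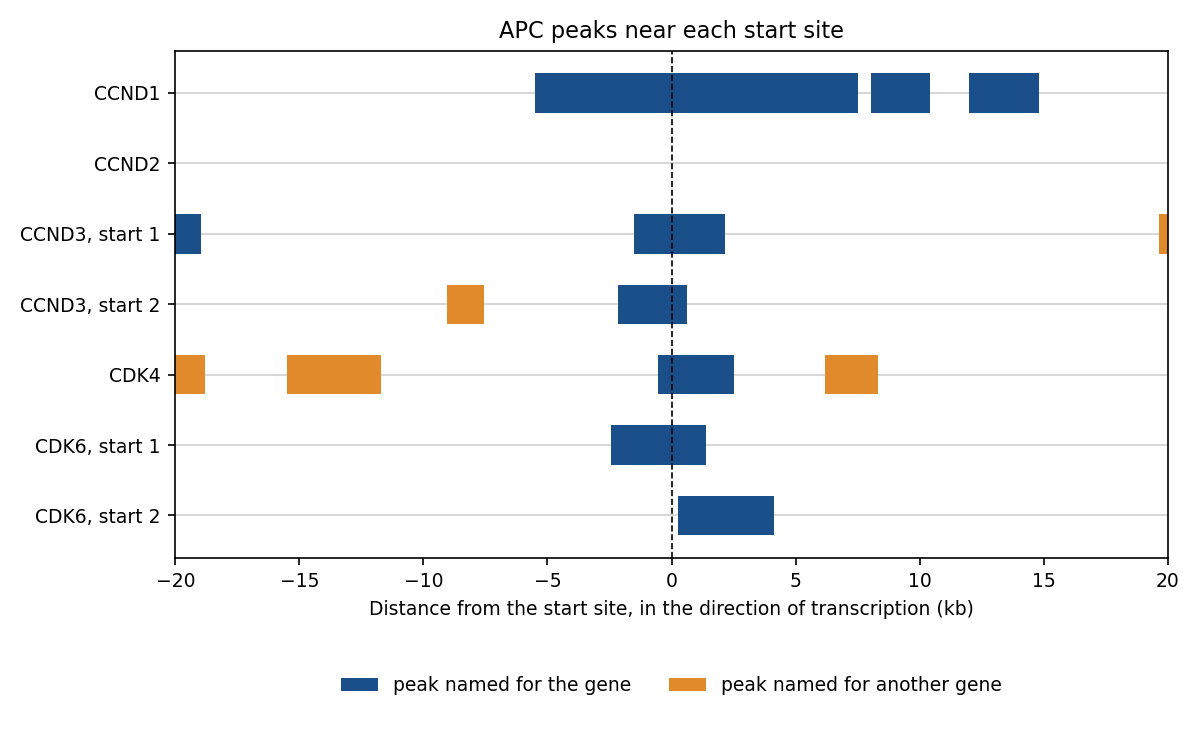
Peaks within 20 kb of each start site (x axis, kb in the direction of transcription, dashed line at the start), 1 row per gene and start. CCND1 is covered almost without a break into the gene, CCND2 is empty, both CCND3 starts, CDK4 and the first CDK6 start lie inside a peak, and the second CDK6 start lies 254 bp outside one.

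CCND3 encodes cyclin D3 (chromosome 6, minus strand). Its peaks were measured from 2 start sites, at 41909586 and 42016632, and each start had a peak over it. The peak at 41909586 was 3673 bp long (41907428 to 41911099), was centred in the first exon of a transcript and reached 1512.5 bp upstream and 2158.5 bp downstream. The peak at 42016632 was 2799 bp long (42016008 to 42018805) and reached 2172.5 bp upstream and 624.5 bp downstream. The list labels this second peak as the promoter of a transcript of TAF8, a TFIID subunit gene, while naming CCND3 as the nearest gene, so it cannot be assigned to only one of them. Of protein-coding genes with a peak, 1.21% (166 genes) had 2 or more peaks over start sites. That share is taken over all such genes, among them the 39.5% with only 1 peak, which could not have 2. The remaining 3 CCND3 peaks lay in the long first intron between the starts and were 2123, 936 and 1781 bp long. All 3 were centred in repeats, an L2b LINE and the Alu elements AluSq2 and AluSp.

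CDK4 encodes the cyclin D-dependent kinase CDK4 (chromosome 12, minus strand, TSS at 58146230). Its 1 peak, 3074 bp long (58143717 to 58146789), reached 559 bp upstream and 2513 bp downstream, so most of it lay inside the gene. It was centred in intron 2 of 7, 977 bp from the TSS, and outside repeats. Among the 5402 protein-coding genes with 1 peak, 46.1% had that peak over the TSS. By number of peaks CDK4 is the lowest of the 5 genes, but by summed length it is above CCND2.

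CDK6 encodes the other cyclin D-dependent kinase (chromosome 7, minus strand). The list measured its peaks from 2 start sites, at 92463231 and 92465941. A 3863-bp promoter peak (92461826 to 92465687) covered the first, from 2455.5 bp upstream to 1405.5 bp downstream, and ended 254 bp short of the second. The other 3 CDK6 peaks were 830, 1341 and 634 bp long and lay 27592, 52645 and 136206 bp upstream of the second start. Each was centred in a repeat, namely an LTR (THE1B-int), a LINE (L1PA10) and an AluSc element. The first 2 of these lay in an intron of CDK6-AS1, the antisense neighbour, and the last was intergenic.

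The CDK6 gene body carried more peaks than its name shows. Another 5 peaks were annotated to CDK6 transcripts but named for FAM133B, whose TSS was nearer. Of these, 4 lay in introns 4 and 5 of 7 and 1 at a transcript end, between 135347 and 229294 bp downstream of the first CDK6 start. They were 572 to 1008 bp long, 4088 bp in all, and none was centred in a repeat. With them CDK6 had 9 peaks with 10756 bp, still below the 11312 bp of CCND3. No peak annotated to a CCND1, CCND3 or CDK4 transcript was named for another gene.

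Across the 17 peaks, length went with position. The rule for a covered start uses the peak length, so longer peaks meet it more easily and part of this difference is built in. The 5 peaks over start sites were 2799 to 13036 bp long, with a median of 3673 bp, and the 12 others were 594 to 2837 bp long, with a median of 1555 bp. The groups overlap only through the CCND1 transcript-end peak of 2837 bp and the CCND3 peak of 2799 bp. Of the 12 peaks away from starts, 8 were centred in repeats, and the 4 that were not all belonged to CCND1. Peaks over start sites were also the longer ones in the whole list, with a median of 2249 bp against 1350 bp for all peaks. In the whole list 4.39% of peaks over start sites and 63.5% of the others were centred in repeats, and repeat-centred peaks had a median of 1002 bp against 1772 bp for the rest. How far peak length follows from sequencing depth, or from the joining of neighbouring calls, was not tested.

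The labelled class of a peak and the position of its centre gave other counts for the same genes. A peak labelled as promoter was named for CCND3 and CDK6 only, against 22.0% of RefSeq protein-coding genes. For CCND3 that label is of a TAF8 transcript, and its other start peak is labelled as exon. A centre within 1 kb of the TSS was found for CCND3, CDK4 and CDK6, against 35.0% of these genes, and CCND1 missed this limit by 3 bp. A centre within 10 kb was found for all but CCND2, against 50.8%.

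Neighbouring genes shared the peaks around these loci. Within 100 kb of the CCND1 TSS lay 12 peaks, of which 3 were named for ORAOV1 (now LTO1) and 4 for FGF19, a fibroblast growth factor gene. All 7 lay downstream of CCND1, and together with its own they covered 38772 bp, more than around 90.7% of genes with a placed TSS. The ORAOV1 peak of 1911 bp covered that gene's own TSS, and the longest of the others was a 4374-bp peak named for FGF19, centred 71523 bp downstream of the CCND1 TSS. Around CDK4 there were 10 peaks, 9 of them named for 8 other genes, and 6 of the 9 covered the start of the gene they were named for. The closest were a 2128-bp peak over the start of TSPAN31, a tetraspanin gene, and a 3772-bp peak over that of CYP27B1, the vitamin D-activating hydroxylase. Peaks of METTL21B (2641 bp), TSFM (1880 bp), AVIL (1304 bp) and CTDSP2 (4236 bp) covered the other 4 starts. Peaks named for B4GALNT1 and OS9 were 585 and 553 bp long and Alu-centred.

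Around the CCND3 starts there were 16 peaks, 11 of them named for USP49, BYSL, TAF8 or C6orf132. The peaks of BYSL (1835 bp) and USP49 (1290 bp) covered the starts of those genes. The longest of the 16, at 9032 bp, was intergenic, was named for C6orf132 and was centred 48589 bp upstream of the CCND3 start at 42016632. The CDK6 surroundings were sparse by comparison. All 3 peaks within 100 kb of the first CDK6 start were its own, covering 6031 bp, against a median of 9844 bp over genes with a placed TSS. CCND1, CCND3 and CDK4 lay above that median, with 16316 and 23753 bp around the CCND3 starts and 22830 bp around CDK4.

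**Figure D4:**
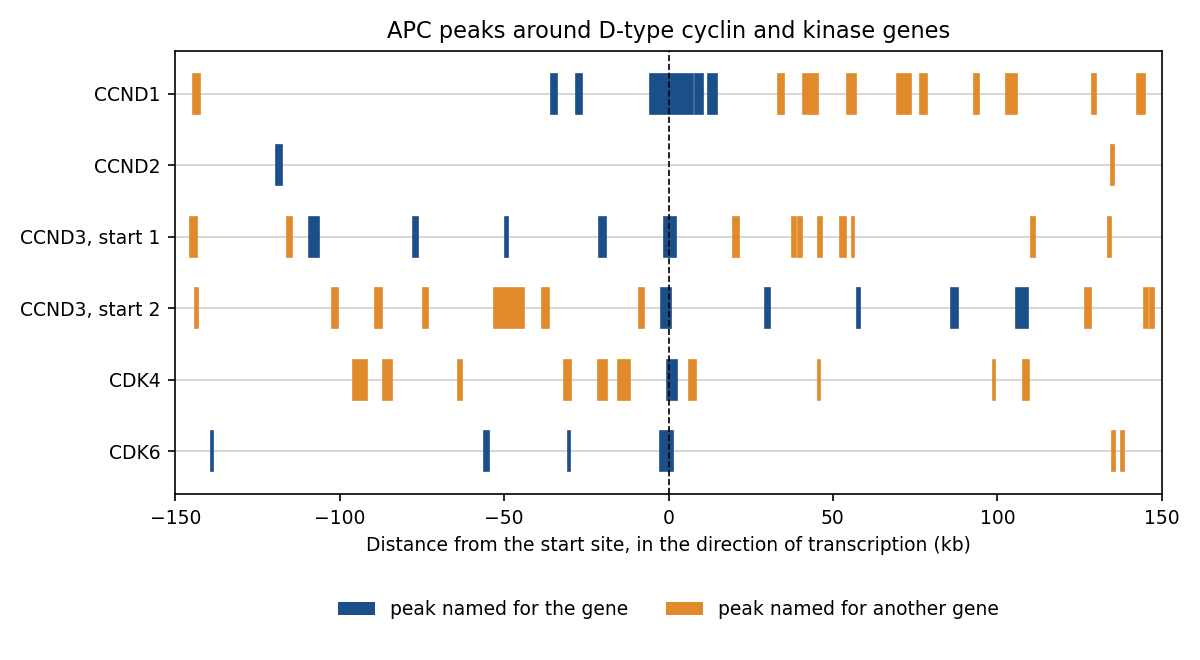
Peaks within 150 kb of a start site of each gene (x axis, kb in the direction of transcription), blue where the peak is named for the gene and orange where it is named for another gene, each drawn with a thin outline that sets a least visible width. The CCND1 cluster continues downstream in peaks of other genes, CDK4 sits among peaks of its neighbours, and CCND2 is bare between 117505 bp upstream and 134521 bp downstream.

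Genes of the pathway around these cyclins and kinases, and other cyclins and CDKs, were counted by the same rule for covered starts. The other cyclins and CDKs were listed by family, whether or not they act with the D-type cyclins. Over all 68 genes in 6 lists, 44 were covered (64.7%), against 36.5% of RefSeq protein-coding genes, and 8 had no named peak. Only peaks named for a gene were counted, so a start under a peak named for a neighbouring gene counts as not covered. Such peaks were not searched for in these lists. The lists hold many genes that most dividing cells transcribe, and transcription was not measured here, so how the counts relate to it was not tested. The median start peak of the 44 was 2341.5 bp, close to the 2238 bp of all covered protein-coding genes. CCND1 exceeded all of them except CDK3, whose 20232-bp peak covers its start.

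Of the CDK inhibitors, 6 of 7 were covered (85.7%, against 36.5% of all RefSeq protein-coding genes). CDKN1A, which encodes p21, had 5720 bp, CDKN2D, an INK4 gene, had 5647 bp, CDKN1B, which encodes p27, had 3838 bp, and CDKN2C, another INK4 gene, had 2808 bp. CDKN2B had 6 peaks, but the nearest centre was 50164 bp away. Of the RB and E2F genes, 9 of 13 were covered (69.2%), led by E2F3 (4332 bp), RBL1 (3194 bp), which encodes p107, E2F2 (2643 bp) and E2F8 (1909 bp). RB1 itself had a 1573-bp peak. No peak was named for E2F1, E2F4 or RBL2, and TFDP2 had 8 peaks, none over the start. Of the cyclins and kinases that act after the D-type ones, 3 of 8 were covered, near the 36.5% of all genes. They were CCNE2 (3438 bp), CCNA2 (1609 bp) and CDK1 (1207 bp). The starts of CCNE1, CCNA1, CCNB1 and CCNB2 were not covered and CDK2 had no named peak.

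Among other cyclins 9 of 14 were covered (64.3%), against 36.5% of all RefSeq protein-coding genes. The longest start peaks were at CCNF (3523 bp), CCNO (2992 bp), CCNG2 (2750 bp) and CCNC (2397 bp), and no peak was named for CCNL2. Among other CDKs 9 of 17 were covered (52.9%), the share nearest to that of all genes in this paragraph. After CDK3 came CDK11B (4593 bp), CDK18 (4213 bp) and CDK13 (3868 bp), and no peak was named for CDK5, CDK10 or CDK16. CDK11A and CDK11B are near-identical copies, among which reads can be shared. Of the CDK activators and genes of cyclin D turnover, 8 of 9 were covered (88.9%). CDC25B, a phosphatase that activates CDKs, had 6702 bp, FBXO31, a ubiquitin ligase subunit for cyclin D1, had 4257 bp, GSK3B, a kinase that phosphorylates cyclin D1 and β-catenin, had 2566 bp, and CDC25C had 2342 bp. AMBRA1, the adaptor that directs D-type cyclins to degradation, had 1175 bp. USP2 was the one not covered.

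**Figure D5:**
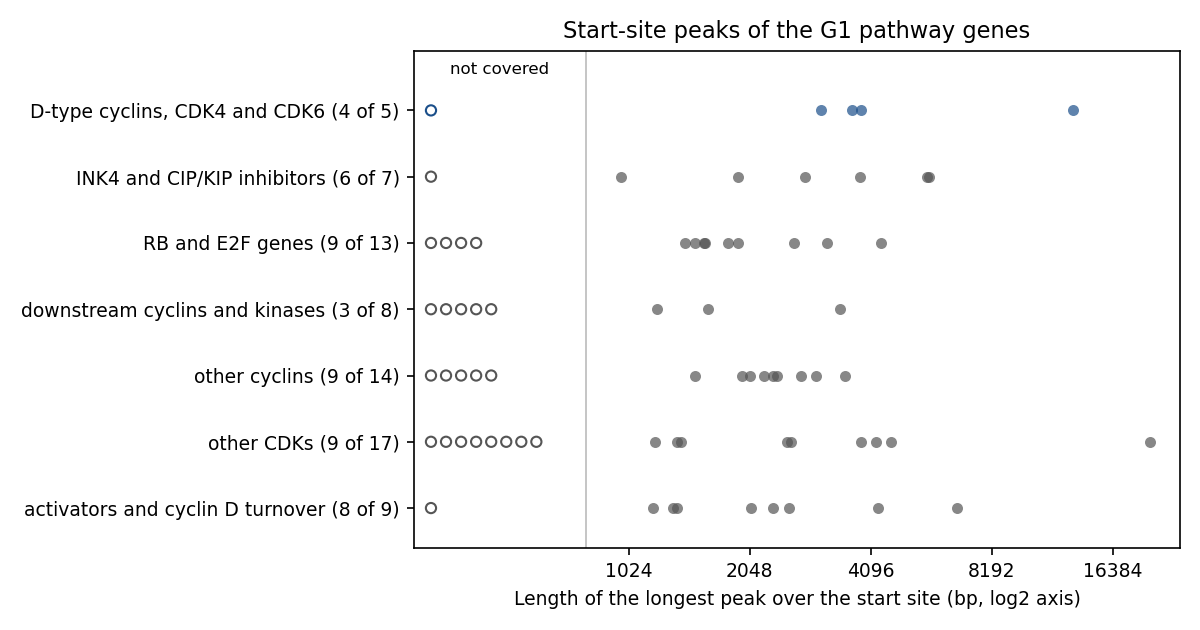
Length in bp (log2 axis) of the longest peak over the start site for the D-type cyclins with CDK4 and CDK6 and for 6 lists of related genes, 1 filled point per covered gene and 1 open point at the left per gene not covered (placed side by side, with no value). The numbers beside each name give covered genes of all genes in the list, 4 of 5 for the D-type cyclins and their kinases and 3 of 8 for the downstream cyclins and kinases.

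The labelled cell type was set against start-site peaks, which are no measure of expression. Again only peaks named for a gene were counted. Colon epithelium genes were covered in 6 of 8 cases, among them EPCAM (4543 bp) and CDX2 (2709 bp). Of the other 2, VIL1 had 2 peaks, neither over its start, and KRT18 had no named peak. Genes of other cell types were covered in 1 of 10 cases, COL1A1. The share over all RefSeq protein-coding genes was 36.5%, and no difference between these small lists was tested.

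Genes with the most similar peaks were found for each of the 5 by the distance between log2 values of peak number, summed length and longest length over this 1 library, among protein-coding genes with a peak. This distance does not use start coverage. The nearest to CCND1 were SYTL3, ZNF251 and FASN, at 0.29 to 0.32. The FASN peak of 14476 bp covers its TSS, while the start peak of SYTL3 had 1467 bp and ZNF251 had none. The nearest to CCND2 were FOXD4L1, C14orf39 and STXBP5, with 2 peaks each. Those nearest to CCND3 were MACF1, NMT2 and UBE2L3, with 5 peaks each, and of these only UBE2L3 had a peak over its start (3557 bp). For CDK4 they were SORD, PTMS and HMCES, each with 1 peak of 3072 to 3075 bp over the TSS. For CDK6 they included CCDC3 and KCNQ1, with 4 peaks each. The CCND1 neighbours were farther off than any of the others, where all distances were at most 0.09.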

How the data were processed

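HCT-116 chromatin was crosslinked with 1% formaldehyde for 10 min, sonicated, digested with micrococcal nuclease and immunoprecipitated with 10 μg of anti-APC antibody, per the labels' protocols. Per the submitters' processing notes, peaks come from MACS2 with hg19 as the build. The annotation software, the role of the input, the aligner and the caller's version and threshold were not given in the sources used here. Scores deposited by the authors exceed the end minus the start by 2 bp in all rows and were used as peak lengths only. The deposited distance runs from the peak centre to a TSS of the named gene.

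TSS positions were derived from centres and distances, with the strand on which a gene's peaks give 1 start, or else the strand of the RefSeq table. Where both were known they were the same for 6750 of 6793 genes. Functions were checked on simulated peaks with known starts. Of 13691 protein-coding names, 13475 matched GRCh38.p14 RefSeq symbols, used for names, types and strands only. Members and gene lists were chosen with earlier results of these data known. Named genes were the 5 members, genes naming peaks within 100 kb, of each list the 4 longest start peaks and genes without a peak, and the 3 most similar genes per member, of which 1 is not reported here. A few further list genes were named after their values were seen. Protein identities were not analysed here. Python 3.11.15, numpy 2.4.6, pandas 2.3.3, scipy 1.17.1 and matplotlib 3.10.9 were used.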

Additional observations from a re-analysis of the deposited data

How the results depend on the processing

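There was 1 library per group, so no library could be left out, and no paired analysis was possible because no result comes from a test. Of 90 alternative values 57 stayed close to the value reported (counts within 1.5-fold, percentiles within their 95% Wilson interval, start-peak lengths equal) and 33 moved. The Wilson interval served only as a set width and measures no spread between libraries. Some of the 57 could not move, so their number is no measure of robustness. For example, CCND1 had no SINE-centred peak to leave out. The count of 4 of 5 genes with a covered start became 2 with the promoter label, where CCND3 counts through the TAF8 label. It was 3 with centres within 1 kb and 4 under the other 3 alternatives. Peaks of at least the median length left CCND2 with 0 peaks (0 bp) and CDK6 with 1 (3863 bp). Without SINE-centred peaks CCND2 had 0 peaks (0 bp) and CCND3 had 3. Merging within 500 bp left CCND2 with 1 peak, and within 2000 bp CCND1 had 3 and CCND2 had 1, with a CCND1 start peak of 20342 bp. Centres within 10 kb numbered 2 for CCND1, 0 for CCND2, 2 for CCND3 and 1 for CDK6, and within 50 kb 0 for CCND2 and 2 for CDK6. Counting by transcript annotation, chosen after seeing the data, gave 3 for CCND1 and 0 for CCND2. Among all RefSeq protein-coding genes, with genes lacking a peak at 0, the summed-length percentiles were 99.1 for CCND1, 43.9 for CCND2, 95.4 for CCND3, 64.8 for CDK4 and 87.1 for CDK6, and the start-peak percentiles 99.9 for CCND1, 94.2 for CCND3, 90.7 for CDK4 and 94.9 for CDK6. Among gene names of any type, summed length gave 19.4 for CCND2 and 50.2 for CDK4, and start peaks 83.0 for CCND3 and 85.0 for CDK6. All list counts stayed within 1.5-fold with centres within 1 or 10 kb.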
